A study of Mus musculus with 4 samples.

Results

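Cadherins and immunoglobulin-family adhesion molecules are the surface proteins by which cells of the early embryo sort themselves. This account follows 9 genes: the epithelial adhesion genes Cdh1 (E-cadherin) and Epcam, the neural members Cdh2 (N-cadherin), Ncam1, L1cam, Nrcam, Cntn2 and Gap43, and the mesenchymal cadherin Cdh11. They were chosen by name, and every probe set whose single annotated symbol is one of them was kept. This gave 16 probe sets of 22690, for 9 of the 12393 genes that the annotation names.

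RNA was measured on 4 one-colour Affymetrix arrays of P19, a mouse embryonal carcinoma line that turns towards neural fates when aggregated in retinoic acid. Control cells were unmodified P19 cells, with 2 arrays, and LIN28A cells were P19 cells made to express human LIN28A constitutively, again with 2 arrays; LIN28A binds RNA and keeps let-7 microRNAs from maturing. All cells had been in aggregates with all-trans retinoic acid at 5e-07 M for 4 days, and no undifferentiated sample was analysed here. Neither the promoter driving LIN28A nor the clonality of the line is stated in the labels. The comparison asks how constant LIN28A bears on the adhesion genes of P19 cells under differentiation. The labels number the arrays 1 and 2 in each line without naming separate cultures. The p-values thus reflect the spread among these arrays alone, which may be technical.

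As background, E-cadherin holds epithelial and pluripotent cells together, and when the neural plate forms, cells give it up for N-cadherin. NCAM, L1, NrCAM and contactin-2 are immunoglobulin-domain proteins of the axon surface, used in bundling, outgrowth and guidance. NCAM can carry long chains of polysialic acid, added by the enzymes ST8SIA2 and ST8SIA4, which loosen adhesion.

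Same-numbered arrays were more alike than arrays of one line. The correlation across tested probe sets was 0.97 between lines at each number and 0.93 to 0.94 within a line, and probe sets are not independent replicates. The median intensity ran from 29.0 to 38.6, and between 35.8% and 42.3% of probe sets read below 16. The 18S ribosomal RNA probe set read 677 (control) and 136 (LIN28A) at number 1, and 9.20 and 11.3 at number 2. The beta-actin 3' to 5' ratio was 4.71 in control 1 and 2.76 to 3.37 in the other arrays. Of the labelled neural state, Sox2 read 1902 and 1697 in the controls and 1557 and 1295 in LIN28A cells, and Tubb3, a neuronal tubulin gene, read 372 to 644. Over the 9 neural markers tested, 7 had a log2 difference, LIN28A minus control, below 0, as did most of all tested probe sets (median -0.05). Of these 9 markers, 3 were lower in both LIN28A arrays (15.5% of all tested probe sets). Their medians were -0.22 in replicate 1 and -0.51 in replicate 2. Nes and Pax6 turned between the numbers (0.72 and 0.90, then -0.53 and -0.76). Of 14 fibroblast and mesenchymal markers 5 read under 16 in every array, and so did 5 of 10 endoderm markers, Afp and Ttr among them. Fibronectin (Fn1) read 433 to 540, and the laminin genes Lama1 and Lamb1 of the endoderm list read 127 to 383 and 45.6 to 273. Of the 5 tested endoderm markers 3 lay above 0, with Lamb1 higher and Sox7 lower in both LIN28A arrays; summed over the list, intensity was 340 and 478 in the controls and 292 and 689 in LIN28A cells, so the lines overlapped. Because these are bulk RNA samples, fewer cells of a type and less RNA per cell cannot be told apart.

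No member passed the test between lines. Values were compared as log2(intensity + 16), a scale that understates the change of dim genes, by limma with Benjamini-Hochberg adjustment over the 15838 probe sets that passed a filter on low values. Of the 16 member probe sets, 13 passed it, with at least 1 for each gene; the other 3 all belong to Ncam1. Limma called 0 of the 13, with adjusted p = 1.0 for each. Over the whole table it called 0 higher (0%) and 0 lower (0%). Before adjustment, 70 higher (0.442%) and 192 lower (1.21%) had p under 0.05; 0 members were among those, and the lowest unadjusted p of a member was 0.28. The fold changes below are therefore values of 2 arrays against 2, not calls.

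The direction was nonetheless uneven between the replicate numbers. Within replicate 1, 12 of the 13 tested member probe sets read lower in LIN28A than in control cells (58.8% of all tested probe sets did), with a median log2 difference of -0.50 against -0.09 over all tested probe sets. Within replicate 2, 7 of the 13 did (50.1% of all), with a median of -0.07 against -0.0024. Of the 13, 6 lay below 0 in both numbers (33.3% of all) and 0 above 0 in both (24.2% of all). Each number sets 1 array against 1, so these within-number differences have no test. Median centring moved the median over all tested probe sets from -0.05 to 0.08, and under it 11 member probe sets lay below 0 in replicate 1, 7 in replicate 2 and 5 in both; quantile normalization gave the same counts of 11, 7 and 5.

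**Figure D1:**
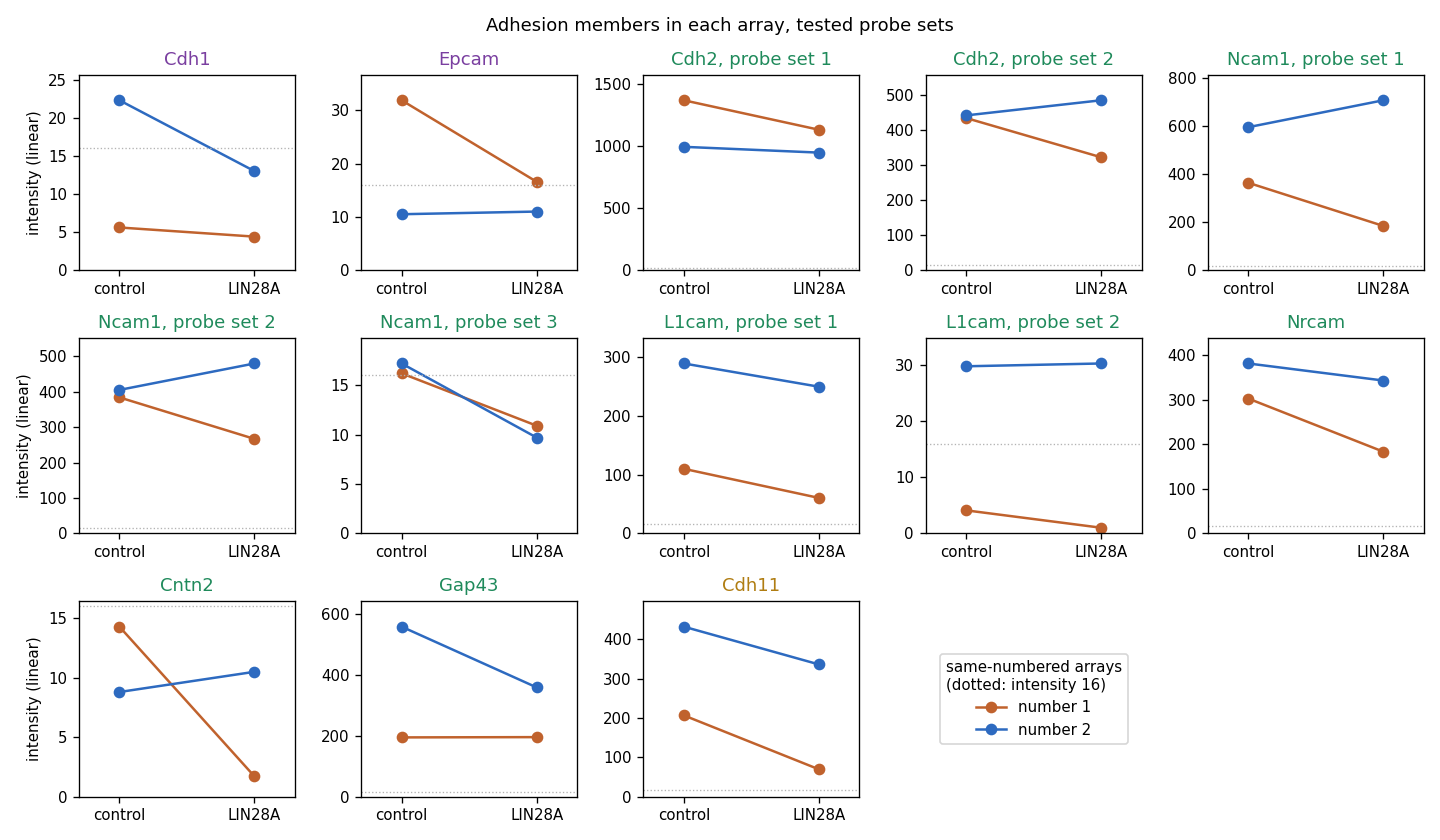
Linear intensity (y axis, from 0, a scale of its own in each panel) of the 13 tested member probe sets in control and LIN28A cells; each point is 1 array, lines join arrays of the same number, and the dotted line is an intensity of 16. Cdh1, Epcam and Cntn2 sit near or under the dotted line, and for Ncam1 probe set 1 the lines slope down in number 1 (364 to 184) and up in number 2 (596 to 708.5).

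The epithelial members read near the bottom of the scale in both lines. Cdh1 encodes E-cadherin, the calcium-dependent adhesion protein of epithelial junctions. It read 5.6 and 22.3 in control 1 and 2, and 4.4 and 13 in LIN28A 1 and 2. Only control 2 was above 16, and the lines overlapped. LIN28A minus control was -0.24 ± 0.39 on the log2 scale (SE, n = 2 arrays a line), with -0.08 in replicate 1 and -0.40 in replicate 2. The replicate 1 value was 0.15 under quantile normalization and 0.12 under median centring. Without control 2 the fitted difference was 0.17, and without LIN28A 1 it was 0.012.

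Epcam encodes a calcium-independent adhesion protein of epithelia and pluripotent cells. It read 31.9 and 10.5 in the controls and 16.6 and 11 in LIN28A cells. Control 1 was the high array and the other 3 lay between 10.5 and 16.6, inside or at the edge of the control range. On the log2 scale LIN28A minus control was -0.26 ± 0.38 (SE), with -0.56 in replicate 1 and 0.027 in replicate 2, and 0.16 without control 1. Dim probe sets in general tended to read highest in that array: of the 4098 tested probe sets with a mean under 32, 45.7% had their highest value in control 1, and their median replicate 1 difference was -0.25. The part of this in the Epcam value was not tested.

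The other epithelial genes of a fixed list ranged from dim to moderate readings. Of 25 on the array, 7 read under 16 in every array, among them the claudin genes Cldn4 and Cldn7, and 15 were tested, none of which passed. Of those 15, 12 lay below 0, as did most of all tested probe sets (median -0.05). Among tested probe sets with a mean under 32, 73.9% lay below 0 in replicate 1. Of the 15, 6 read lower in both LIN28A arrays than in both control arrays (15.5% of all tested probe sets did), with 0 higher in both (10% of all). The list's median was -0.30, with -0.52 in replicate 1 and -0.11 in replicate 2. Without control 1, the array where dim probe sets tended to read highest, it was -0.02, and without control 2 it was -0.56; a filter at the 50th percentile gave -0.11. The keratin gene Krt18 read 44.8 and 14.3 in the controls and 10 and 9.3 in LIN28A cells. Krt8 read 37.8 and 14.7 against 18.6 and 12.4 at its brightest probe set. Its other probe sets read 29.7 and 6.2 against 6.5 and 7, and 39.5 and 3.8 against 2.1 and 1.5. Brighter genes of the list went both ways. Tjp1 read 254 and 340 in the controls and 327.5 and 379 in LIN28A cells, above 0 in both numbers (0.35 and 0.15). Pkp2 read 172 to 196, Lsr 80.9 to 169 and F11r 45.7 to 222. The summed intensity over the list was 1294 and 936 in the controls and 1041 and 900 in LIN28A cells, so the lines overlapped in the sum. These brighter genes weigh most in it, so it says little of the dim ones.

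Low E-cadherin and EpCAM readings stood beside uneven readings of the pluripotency gene Pou5f1 (Oct4). At number 2, Pou5f1 was at 374 (control) and 775 (LIN28A), whereas at number 1 it was at 30.3 and 28.7. Epcam read 10.5 and 11 in those number 2 arrays, its 2 lowest values, whereas Cdh1 read 22.3 and 13 there, its 2 highest. Of 9 pluripotent cell markers, the summed intensity was 219 and 434 in the controls and 286 and 963 in LIN28A cells, and 2 read under 16 in all arrays. Of the 7 tested, 3 lay above 0 and 4 below, and 0 passed. In both LIN28A arrays 2 were higher (10% of all tested probe sets) and 2 lower (15.5% of all). Sall4 and Utf1 were the higher ones, and Sall4 read 16.4 and 2.10 in the controls and 194 and 83.1 in LIN28A cells. Esrrb and Fgf4 were the lower ones, and Nanog read 70.8 in control 1 and 5.7 to 37.8 in the other arrays. Their part in the member values was not tested.

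RefSeq promoter windows (GRCm38.p6, from 250 bases before to 50 bases after the gene start) were at hand for 4 of the 9 genes. They were searched for the letters CAGGTG on both strands (CACCTG on the other), the core of the E-box that the repressors of Cdh1, the SNAI and ZEB zinc finger proteins, can bind. Of 32851 windows, 20.2% hold it at least once and 2.88% hold it 2 or more times. The Epcam window holds 2, starting 187 and 19 bases before the gene start, the Nrcam window holds 1, starting 205 bases before it, and the L1cam and Cntn2 windows hold 0. Epcam is shown as the epithelial member, and Nrcam and L1cam as neural members of which the brightest probe set lay below 0 in both replicate numbers; capitals mark the motif. The windows lie at chr17:87635729-87636028 on the + strand (Epcam), chr12:44328635-44328934 on the + strand (Nrcam) and chrX:73880741-73881040 on the - strand (L1cam). A match is a description of letters, not of binding.
Epcam: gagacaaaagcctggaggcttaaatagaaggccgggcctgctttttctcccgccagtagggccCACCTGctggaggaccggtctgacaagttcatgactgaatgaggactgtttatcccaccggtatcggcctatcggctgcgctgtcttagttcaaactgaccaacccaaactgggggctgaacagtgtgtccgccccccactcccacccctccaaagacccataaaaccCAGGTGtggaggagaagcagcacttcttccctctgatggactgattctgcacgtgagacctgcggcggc
Nrcam: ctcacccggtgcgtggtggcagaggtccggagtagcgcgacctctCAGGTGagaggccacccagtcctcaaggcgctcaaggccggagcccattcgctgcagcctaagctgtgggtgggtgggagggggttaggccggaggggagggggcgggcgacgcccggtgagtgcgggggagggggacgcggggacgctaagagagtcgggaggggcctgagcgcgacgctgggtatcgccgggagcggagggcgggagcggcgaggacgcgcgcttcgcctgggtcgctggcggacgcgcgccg
L1cam: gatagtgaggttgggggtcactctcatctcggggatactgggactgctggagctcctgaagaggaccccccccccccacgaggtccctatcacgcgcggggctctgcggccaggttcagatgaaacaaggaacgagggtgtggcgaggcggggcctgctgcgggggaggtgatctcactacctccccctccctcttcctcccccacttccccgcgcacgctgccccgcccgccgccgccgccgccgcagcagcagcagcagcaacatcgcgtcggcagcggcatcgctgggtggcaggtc

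Of the genes for those repressors, Zeb1 read 336 and 546 in the controls and 255 and 558 in LIN28A cells. Zeb2 read 47.6 and 26.4 in the controls and 101 and 43.2 in LIN28A cells, higher in LIN28A within both numbers (log2 0.88 and 0.48) but with overlapping lines. Snai1 read under 16 in every array, and Snai2 in all but control 1 (22.3). None of the 5 tested genes of this list passed.

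N-cadherin differed little between lines, and its arrays overlapped. Cdh2 encodes the cadherin of the neural tube and of neurons. Its first probe set read 1367.5 and 993 in the controls and 1130 and 946 in LIN28A cells, with a log2 difference of -0.17 ± 0.31 (SE). Its second probe set read 433 and 441 against 321.5 and 484 (-0.14 ± 0.32). Control 1 was the highest array at the first probe set, and LIN28A 2 at the second. Within replicate 1 control read 1.21 and 1.35 times LIN28A at these probe sets, and within replicate 2 it read 1.05 and 0.911 times. Without control 1 the first probe set differed by 0.058, and without LIN28A 1 the second differed by 0.14.

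The catenins that tie cadherins to actin read at similar levels in both lines. Beta-catenin (Ctnnb1), which binds the cadherin tail, read 4422 and 3414 in the controls and 3576 and 3749 in LIN28A cells. Of 10 tested catenin and adaptor genes, 6 lay above 0 and 4 below, and 0 passed. Of them, 3 read higher in both LIN28A arrays (10% of all tested probe sets) and 0 lower (15.5% of all). The list median of 0.07 was 0.013 without LIN28A 2 and 0.23 without control 2. The p120-catenin gene Ctnnd1, whose protein holds cadherins at the surface, read 27.3 and 40.2 in the controls and 74.5 and 49.3 in LIN28A cells, without overlap.

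Ncam1 turned direction between the replicate numbers at both of its bright probe sets. Its first read 364 and 596 in the controls and 184 and 708.5 in LIN28A cells. Its second read 384 and 405 in the controls and 267 and 480 in LIN28A cells. In each case LIN28A 1 was the lowest array and LIN28A 2 the highest. The log2 differences were -0.92 and -0.50 in replicate 1 and 0.24 and 0.24 in replicate 2, and the fit gave -0.34 ± 0.64 and -0.13 ± 0.36 (SE). Without LIN28A 1 the fit gave 0.59 and 0.27, and without control 2 the first gave 0.0028.

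The dimmer Ncam1 probe sets read near or under 16. The third read 16.2 and 17.2 in the controls and 10.9 and 9.70 in LIN28A cells. It was the only one of the 13 tested member probe sets with both LIN28A arrays below both control arrays (15.5% of all tested probe sets); 0 had both above (10% of all). Its log2 difference was -0.31 ± 0.28 (SE), with a replicate 1 value of -0.26 that was 0.064 under quantile normalization. The 3 that failed the filter read from 0.20 to 12.8 and were not tested. The mean log2 values nearest the filter were 4.61 for Cntn2 just inside and 4.44 for an Ncam1 probe set just outside.

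The polysialyltransferase genes that act on NCAM read lower in LIN28A cells in each replicate number, most of all St8sia4. St8sia4 read 107 and 115 in the controls and 33.6 and 43.8 in LIN28A cells, so both LIN28A arrays lay well under both controls. Its log2 difference was -1.22 ± 0.29 (SE), with -1.31 in replicate 1 and -1.13 in replicate 2 (unadjusted p = 0.0055 and adjusted p = 1.0 by limma). Its second probe set was dim and read 22.5 and 12.3 against 4.6 and 5.6, again without overlap. Leaving out any 1 array kept the St8sia4 difference between -1.36 and -1.09.

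St8sia2, the enzyme gene that dominates in the embryonic brain, differed less. It read 88.7 and 153 in the controls and 60 and 110.5 in LIN28A cells, with overlap between lines. Its differences were -0.46 in replicate 1 and -0.42 in replicate 2, or -0.30 and -0.10 at its second probe set. The fitted value of -0.44 moved to -0.07 without LIN28A 1. The fixed list of 10 tested partners of NCAM and L1 had 5 genes above and 5 below 0, and 0 passed. In both LIN28A arrays 3 were higher (10% of all tested probe sets) and 1 lower (15.5% of all).

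**Figure D2:**
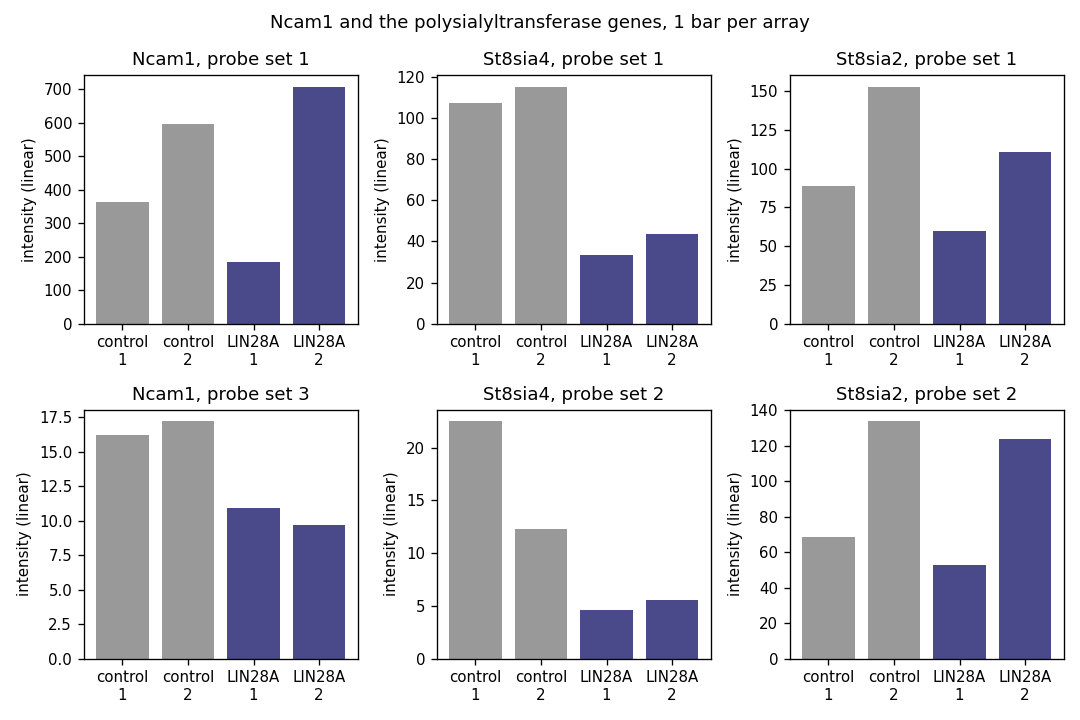
Linear intensity (y axis, from 0, a scale of its own in each panel) with 1 bar per array, for 2 probe sets each of Ncam1, St8sia4 and St8sia2; grey bars are control and blue bars LIN28A. Both LIN28A bars of St8sia4 (33.6 and 43.8 at probe set 1) lie under both control bars (107 and 115), whereas the bars of the bright Ncam1 probe set and of St8sia2 overlap between lines.

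L1cam and Nrcam read lower in LIN28A cells within both numbers at their bright probe sets. L1cam, whose protein guides and bundles growing axons, read 110 and 290 in the controls and 60.4 and 250 in LIN28A cells. The number 2 arrays were the high ones in both lines, so the lines overlapped. On the log2 scale the lines differed by -0.46 ± 0.70 (SE), with -0.72 in replicate 1 and -0.20 in replicate 2. Without LIN28A 1 it was 0.44, and without control 2 it was 0.18. The second L1cam probe set read 4.10 and 29.8 in the controls and 1 and 30.3 in LIN28A cells, again high in number 2 alone (log2 difference -0.11 ± 0.61, SE, which was 0.0046 under quantile normalization and 0.014 under median centring). That value was 0.61 without LIN28A 1 and 0.48 without control 2.

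Nrcam encodes an L1-family protein of axons and nodes of Ranvier. It read 303 and 381.5 in the controls and 183 and 343 in LIN28A cells, where LIN28A 1 was the low array. The fitted log2 difference was -0.41 ± 0.38 (SE), with -0.68 in replicate 1 and -0.15 in replicate 2, and it was 0.013 without LIN28A 1. Nrcam and the bright L1cam probe set kept negative values within each number under quantile normalization and median centring.

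Cntn2 encodes contactin-2, a lipid-anchored protein of early axons. It read 14.3 and 8.80 in the controls and 1.70 and 10.5 in LIN28A cells, under 16 in every array. LIN28A 1 was the low array, and the other 3 lay between 8.80 and 14.3. The log2 difference was -0.34 ± 0.33 (SE), which was -0.049 without LIN28A 1 and -0.63 without LIN28A 2. At this level the value depends on the pseudocount, with -1.14 at 1 and -0.11 at 64.

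The other immunoglobulin-family adhesion genes of a fixed list lay mostly below 0 as well. Of 19 on the array 12 were tested, of which 10 lay below 0 and 0 passed. Most of all tested probe sets also lay below 0 (median -0.05). Of the 12, 6 were lower in both LIN28A arrays (15.5% of all tested probe sets) and 2 higher (10% of all). The list's median was -0.26 (-0.43 in replicate 1 and -0.08 in replicate 2). That median was -0.13 without LIN28A 1 and -0.48 without LIN28A 2. The 6 lower ones were Cntn1, Cntn3, Cntn6, Alcam, Cadm1 and Ntm. Ntm read 32.1 and 56.1 in the controls and 25.3 and 17.1 in LIN28A cells, and Cntn1 read 254 and 202 against 136 and 181. At its second probe set Cntn1 read 112 and 235 against 40 and 328, with overlap between lines and opposite signs in the numbers (-1.20 and 0.45). The 2 higher ones were Mcam, an endothelial and mesenchymal adhesion gene, which read 2.70 and 4.60 in the controls and 11.2 and 49.5 in LIN28A cells, and Cntnap2, a contactin-associated axonal gene, which read 170 and 120 against 220 and 506. At its second probe set, which was dim, Cntnap2 read 17.4 and 17.1 against 9.4 and 53.7. There the lines overlapped, and replicate 1 was lower in LIN28A cells (-0.40). Chl1, the close homolog of L1, read 2.60 to 12.8 and was not tested.

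Gap43 showed the reverse order of the replicate numbers. It encodes a protein of the growth cone membrane that protein kinase C phosphorylates, and it stands with the neural members although it is no adhesion molecule. It read 194.5 and 559 in the controls and 195 and 359 in LIN28A cells. Both number 1 arrays were alike, and the lines parted in number 2 alone, where control read 1.56 times LIN28A. The log2 difference was -0.30 ± 0.56 (SE), with 0.0062 in replicate 1 and -0.62 in replicate 2. Without control 2 it was 0.42, and without LIN28A 1 it was 0.11.

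Of 11 other growth cone genes tested, 8 lay below 0, 7 of them in both numbers (33.3% of all tested probe sets), and 0 passed. Most of all tested probe sets also had a fitted difference below 0 (median -0.05). The list's medians were -0.41 in replicate 1 and -0.16 in replicate 2. Stmn2, a microtubule regulator of growing axons, read 821 and 902 in the controls and 216 and 627 in LIN28A cells, without overlap (-1.85 in replicate 1 and -0.51 in replicate 2). At its second probe set Stmn2 read 445 and 874 against 146 and 617, with overlap between lines (-1.51 and -0.49). Basp1, a growth cone membrane protein gene related in role to Gap43, read 2899 and 2856 against 2267 and 2533, also without overlap. Stmn3, of the same family as Stmn2, differed more in number 2 (-0.41 in replicate 1 and -0.66 in replicate 2). Its second probe set differed by -0.24 and -0.29, with overlap between lines. Over this list 4 genes were lower in both LIN28A arrays (15.5% of all tested probe sets) and 1, Marcksl1, was higher (10% of all). Marcksl1 differed by 0.06 and 0.57 in the numbers. The list's median of -0.26 was 0.25 without LIN28A 1, -0.0023 without control 2, -0.45 without control 1 and -0.56 without LIN28A 2.

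Cdh11 had the lowest fitted difference of the members. It encodes a type II cadherin of mesenchyme that parts of the developing brain also express. It read 207 and 432.5 in the controls and 69.3 and 336 in LIN28A cells. LIN28A 1 was far the lowest array, and LIN28A 2 lay between the controls. Control read 2.98 times LIN28A within replicate 1 and 1.29 times within replicate 2. The log2 difference was -0.87 ± 0.72 (SE), with -1.38 and -0.35 in the numbers. Without LIN28A 1 it was 0.16. Cdh11 was the only member probe set below -1 in replicate 1 (2.53% of all tested probe sets), and 0 members were below -1 in replicate 2 (2.27% of all).

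The mesenchymal genes of a fixed list were mixed. Of 11 tested mesenchymal genes 6 lay above 0 and 5 below, and 0 passed. In both LIN28A arrays 2 were higher (10% of all tested probe sets) and 2 lower (15.5% of all). Vimentin (Vim), the intermediate filament of neural progenitors and mesenchyme, read 4084.5 and 4165 in the controls and 3682 and 2983 in LIN28A cells. Its other probe sets read 5696 and 3345 against 4268 and 2269, and 4782 and 2778 against 3517 and 1851. There LIN28A was lower within both numbers, but the lines overlapped. Lox, a collagen cross-linking enzyme gene, read 38.5 and 36.3 in the controls and 7.5 and 14.3 in LIN28A cells, without overlap (-1.21 in replicate 1 and -0.79 in replicate 2; unadjusted p = 0.015 and adjusted p = 1.0 by limma). The 2 higher genes were Col3a1 and Acta2, and neither passed after adjustment. The collagen gene Col3a1 read 48.3 and 10.9 against 70.2 and 148 (unadjusted p = 0.030 by limma). The smooth muscle actin gene Acta2 read 74.7 and 40.9 against 142.5 and 98.9 (unadjusted p = 0.047 by limma). Of the list's 14 genes, 5 read under 16 in every array, Col1a1 and Postn among them. Summed over the list, intensity was 5114 and 5100 in the controls and 4629 and 4206 in LIN28A cells. Most of each sum came from Vim, so the sums say little of the other genes.

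Every tested gene among the remaining cadherins had a fitted difference below 0, though not within each number. Of 11 on the array, 9 were tested and all 9 lay below 0, 5 of them in both numbers (33.3% of all tested probe sets). Their median was -0.33 (-0.58 in replicate 1 and -0.07 in replicate 2), against -0.05 over all tested probe sets. It was -0.19 without LIN28A 1 and -0.53 without LIN28A 2. Most of all tested probe sets also had a fitted difference below 0, by their median of -0.05, and the exact share was not counted. Among tested probe sets with a mean under 32, 73.9% lay below 0 in replicate 1. Cdh3, Cdh15 and Cdh20 were dim, at 18 or less in every array. They and Cdh4, Cdh6 and Cdh8 read highest in control 1, whereas Cdh10, Cdh13 and Cdh22 did not. The part of that array in these values was not tested. Of the 9 tested, 0 passed, and 2 were lower in both LIN28A arrays (15.5% of all tested probe sets). Cdh8, a type II cadherin of brain nuclei, read 64.3 and 19.4 in the controls and 20.4 and 1.70 in LIN28A cells. Its log2 difference of -1.07 (-1.14 in replicate 1 and -1.0 in replicate 2) lay below the fitted value of every member. Cdh13, the cadherin without a cytoplasmic tail, read 18.5 and 60.9 against 7.00 and 22.4 (-0.79, with -0.58 and -1.0). The arrays of both genes overlapped between lines. The medians of this list and of the epithelial, immunoglobulin-family and growth cone lists stayed below 0 under quantile normalization and median centring.

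**Figure D3:**
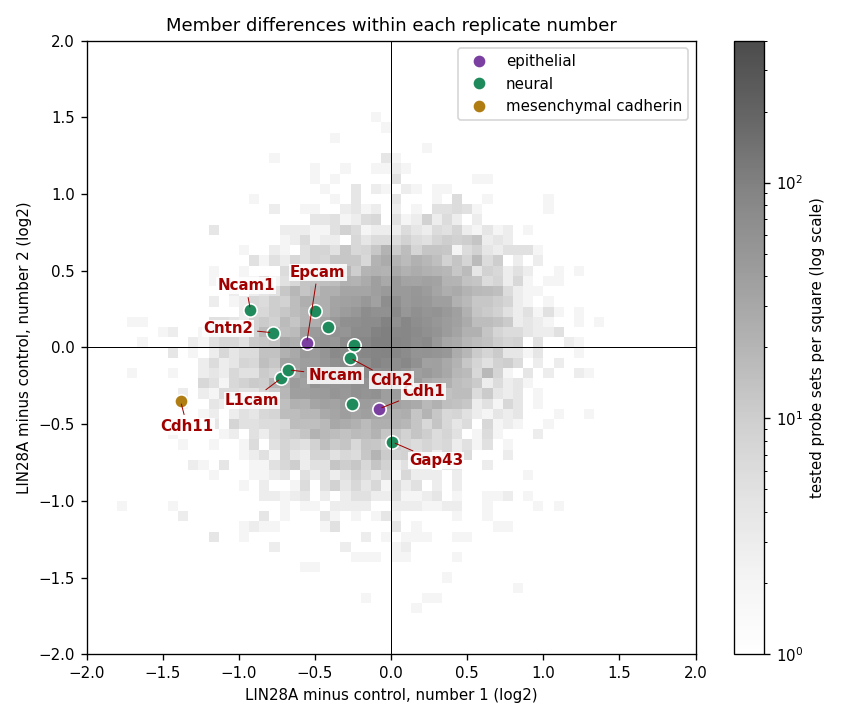
Log2 difference LIN28A minus control in replicate 1 (x axis) against replicate 2 (y axis), with 1 coloured point per tested member probe set, the brightest of each gene named, over the 15838 tested probe sets in grey (83 lie beyond the axes). Members spread along the left of the zero line, from Cdh11 at -1.38 to Gap43 at 0.0062, and on both sides of zero in replicate 2.

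The epithelial and neural members were also set against each other. By the brightest probe set of each gene, the 2 epithelial members had a mean log2 difference of -0.32 in replicate 1 and -0.19 in replicate 2. The 6 neural members had -0.56 and -0.12, with 5 of 6 below 0 in replicate 1 and 4 of 6 in replicate 2. Epithelial minus neural was therefore 0.24 in replicate 1, -0.07 in replicate 2 and 0.08 over both. With Cdh11 counted among the neural members these values were 0.36, -0.04 and 0.16. Without Gap43 they were 0.36, -0.17 and 0.09. The sign in replicate 2 turned with the processing: quantile normalization gave 0.40 and 0.029 in the 2 numbers, and a pseudocount of 64 gave 0.25 and 0.033, positive in both. The values rest on 2 epithelial genes read near the bottom of the scale, and no test was made of a score over chosen members. Leaving out 1 array moved the value over both numbers (0.08) to between -0.33 (without LIN28A 1) and 0.50 (without LIN28A 2). Without control 1 it was 0.34 and without control 2 it was -0.17.

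The median differences between lines were -0.50 in replicate 1 and -0.07 in replicate 2. In size, the median step from number 1 to number 2 was larger than both in LIN28A cells, but in control cells larger than the replicate 2 value alone. In 9 of the 13 member probe sets number 2 read above number 1 in both lines (41.0% of all tested probe sets). The median step was 0.32 in control and 0.81 in LIN28A cells on the log2 scale, against 0.02 and 0.12 over all tested probe sets. In 10 of the 13 the step was larger in LIN28A cells (57.2% of all). By arithmetic this is the same as a LIN28A minus control difference that was lower in replicate 1 than in replicate 2. It restates the within-number differences and is no further result. L1cam read 2.63 times higher in number 2 in control and 4.14 times in LIN28A cells, and Cdh11 2.09 and 4.85 times. Gap43 went the other way, with 2.87 times in control and 1.84 times in LIN28A cells. The 18S, Pou5f1 and beta-actin values given above moved with the number or with control 1 too, and their part in the member values was not tested.

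**Figure D4:**
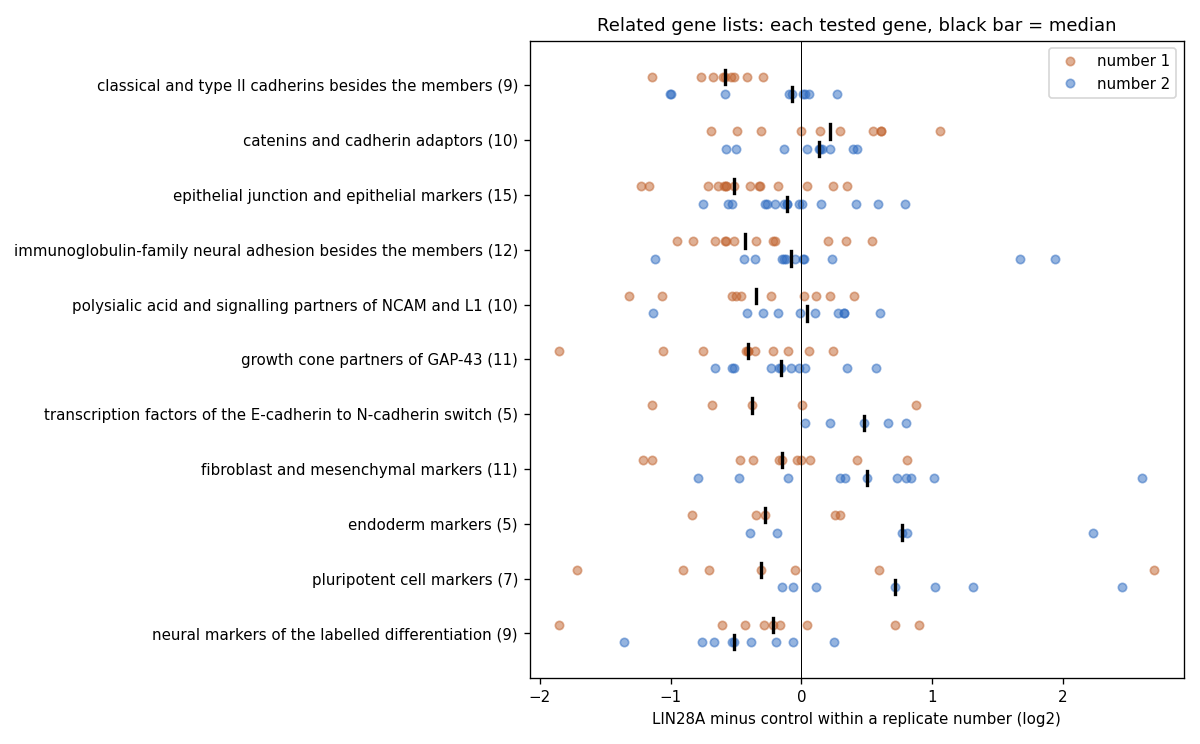
Log2 difference LIN28A minus control (x axis) of each tested gene of the 11 fixed lists, in replicate 1 (orange) and replicate 2 (blue), with black bars at the medians and the number of tested genes in brackets. Cadherin, epithelial and immunoglobulin-family lists have medians of -0.58, -0.52 and -0.43 in replicate 1 and -0.07, -0.11 and -0.08 in replicate 2.

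The genes whose readings over the 4 arrays lay nearest to each member were sought by Euclidean distance between log2 values centred on each gene's own mean. With 4 arrays and 8930 tested genes, close neighbours exist for most patterns, so the distances are a description. The nearest to Cdh11 were Stmn2 (by its second probe set), Gng3 and Ina, at distances of 0.15, 0.16 and 0.17, all low in LIN28A 1. The nearest to Gap43 was Gpm6b (0.026), to L1cam Celf2 (0.093) and to Nrcam Tax1bp3 (0.048). Ncam1 had no gene nearer than 0.16 (Cnot7). The nearest to Epcam was Krt5 (0.016), which like Epcam read highest in control 1 (21.2, against 4.60 to 9.20 in the other arrays).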

How the data were processed

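RNA from 4 arrays was analysed, 2 of control and 2 of LIN28A P19 cells. Per the labels' protocols, total RNA was primed with oligo(dT), turned into biotin-labelled cRNA and hybridised to Affymetrix arrays. The authors deposited linear intensity values; no source used here names the summarising and scaling software. Trimmed by 2% at each end, the means of all 4 arrays were 150.1, so the scaling was kept. The 64 control probe sets were left out of the tests. Values became log2(intensity + 16), and probe sets with a mean log2 value under the 30th percentile (linear value of about 8.04) were not tested. Of the probe sets, 20393 carried 1 symbol, 691 several and 1555 had none besides the controls; all 16 member symbols matched a current gene table by identifier.

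Lines were compared with limma 3.58.1 in R 4.3.3 (lmFit, eBayes, no trend, no block, Benjamini-Hochberg adjustment at 0.05) on all arrays. The code was also run on simulated data with less noise than these arrays, large added differences and no step between numbers. That run cannot show how the test performs on data like these. An exact permutation test of 2 against 2 cannot give a two-sided p below 0.333. The number of arrays limits the precision. A gene stood by its brightest probe set in lists and member groups. "Lower in both LIN28A arrays" means both below both control arrays. Members and lists were chosen with earlier results of these data known. Named besides the members were, in each list, up to 3 tested genes with the largest difference among those of 1 sign in both numbers, genes fixed by name, and the 3 nearest patterns per member; the text gives a part of them. Krt5, Mcam, Cldn4 and the other genes named from counts were given for their counts or patterns.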

Additional observations from a re-analysis of the deposited data

How the results depend on the processing

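No member was called under any setting run. Apart from leaving out arrays, each tested member probe set kept a negative difference under every setting that tested it except the second L1cam probe set, which was 0.0046 with quantile normalization (alone or with the replicate block) and 0.014 with median centring; the cause was not tested. Deviations from the line means correlated between same-numbered arrays (r = 0.62 over tested probe sets), yet nothing in the labels pairs them beyond the number. With the replicate block 1 probe set of the whole table was called higher, and with the block and quantile normalization, chosen after seeing the data, 3 were; 0 were called lower. The lowest adjusted p of a member was 0.57 with the replicate block, and St8sia4 had an adjusted p of 0.32 there. At an unadjusted p under 0.05 the block gave 468 higher and 890 lower, against 70 and 192; the other settings with all arrays and no block gave 51 to 167 higher and 89 to 362 lower.

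Leaving out 1 array, which mixes the step between numbers into the fit, moved the differences between these limits: Cdh1 -0.66 to 0.17, Epcam -0.69 to 0.16, Cdh2 -0.40 to 0.058 and -0.42 to 0.14, Ncam1 -1.27 to 0.59 and -0.54 to 0.27, L1cam -1.36 to 0.44 and -0.84 to 0.61, Nrcam -0.84 to 0.013, Gap43 -1.03 to 0.42 and Cdh11 -1.89 to 0.16. Cntn2 ran from -0.63 to -0.049 and the third Ncam1 probe set from -0.35 to -0.28. Epithelial minus neural ran from -0.33 to 0.50. Its replicate 2 value of -0.07 was 0.029 with quantile normalization and 0.033 with a pseudocount of 64. With the filter at the 50th percentile Cdh1 and Epcam were not tested, so that value was not computed there. Cdh1, Epcam and Cntn2 read so low that signal over background limits them.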
